A study of Mus musculus with 9 samples.

Results

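Surface markers are the proteins and sugars by which naive and primed mouse pluripotent cells are stained and sorted. The 10 genes described here are Pecam1, Cd24a, Icam1, Cd44, Cd9, Prom1, Kit, Alpl, Fut4 and Fut9, taken by name from a list of such markers. All 10 were measured, by 19 of the 34945 probe sets that carried a single gene symbol. Where a gene had several probe sets, the brightest on average across the 9 arrays stands for it, which gave 18193 genes in all, and 5 of the 10 had only 1. RNA came from 3 groups of mouse cultures labelled as strain C57BL/6, with 3 arrays each that the labels call biological replicates. Epiblast stem cells (EpiSCs), the primed state of the epiblast after implantation, were kept in N2B27 medium containing 20 ng/ml ActivinA plus bFGF (12 ng/ml), on gelatine and serum coats with no feeder cells named, and received vehicle in the first group. The second group was EpiSCs in the same medium with IWP2, which blocks the acyltransferase Porcupine and so the secretion of Wnt proteins. The labels used here state neither dose nor duration. The treatment protocol places IWP2 before an addition of Wnt3a, and whether the EpiSC arrays were taken with or without added Wnt3a is not stated in the labels. The third group was embryonic stem cells (ESCs), the naive state, in N2B27 with Wnt3a (250 ng/ml) plus 1000 U/ml of LIF on gelatine. The effects of cell type and of medium therefore cannot be told apart. Whether a group stands for more than 1 cell line is not stated, and p-values therefore measure the spread between these cultures only.

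A marker is useful for sorting when its level differs between states, whatever its function. Pecam1 (CD31) and Icam1 (CD54) are adhesion molecules of the immunoglobulin family, Cd44 is the main receptor for the matrix sugar hyaluronan, and Cd24a encodes a small, heavily glycosylated protein held by a lipid anchor. Cd9 is a tetraspanin, a membrane organiser, and Prom1 (CD133) marks membrane protrusions. Kit is the receptor tyrosine kinase for stem cell factor, the product of Kitl, and Alpl is the tissue-nonspecific alkaline phosphatase that gives pluripotent colonies their classical stain. Fut4 and Fut9 add the fucose that completes Lewis x, the sugar known as SSEA-1 or CD15. In the mouse embryo Pecam1 and alkaline phosphatase are known from the inner cell mass and from germ cells, and Kit together with Cxcr4 is used to sort definitive endoderm.

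The cell labels were first set against their marker lists. All 12 naive pluripotency genes were higher in ESCs than in either EpiSC group, and 5 of them (Nr0b1, Prdm14, Tbx3, Tcl1 and Zfp42) had mean signals below the lower quartile of all values, 3.72, in both EpiSC groups. ESCs had less signal than vehicle EpiSCs for 10 of 12 primed epiblast genes. Correlations over all probe sets were 0.997 to 0.998 within groups, 0.982 to 0.985 between the EpiSC groups and 0.927 to 0.931 between EpiSCs and ESCs, and no array stood apart from its group. With IWP2, 16.6% of all genes rose and 16.8% fell. Of the 12 naive genes 2 rose and 4 fell, and of the 12 primed epiblast genes 4 rose and 4 fell. General pluripotency genes moved both ways (3 of 6 rose and 3 fell). Of 11 measured mesoderm markers, which did not include the listed gene T (brachyury), 3 fell and 1 rose. Of 12 neurectoderm markers 4 fell and 2 rose, and of 10 trophoblast markers 4 fell and 0 rose. Values are log2 signals. Those near the lower quartile compress differences, so a difference against such a value understates its size. In bulk RNA, fewer cells that carry a transcript and less transcript per cell cannot be told apart.

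Surface markers separated ESCs from EpiSCs in both directions and also changed within EpiSCs. A gene is called here when its limma adjusted p (Benjamini-Hochberg over all 18193 genes) is under 0.05. Between ESCs and vehicle EpiSCs 9 of the 10 were called, against 66.6% of all genes, and all 9 differed by at least 2-fold, against 16.5% of all genes. Of these, 6 were higher in ESCs, as were 38.7% of all genes, and 3 lower, as were 27.9%. Against IWP2-treated EpiSCs 9 were again called (62.1% of all genes), 5 higher (35.2%) and 4 lower (26.9%) in ESCs, and 8 differed by at least 2-fold (17.3%). IWP2 itself changed 7 of the 10 (33.5% of all genes), raising 2 (16.6%) and lowering 5 (16.8%), with 4 changed by at least 2-fold (3.72%). The median differences of the 10 were 1.21, 1.19 and -0.21 in these comparisons, against 0.12, 0.10 and 0.03 over all genes. The comparisons share groups of arrays and are not independent of each other. The 10 genes were chosen with earlier results of these data known. Counts above the share of all genes are therefore no independent result.

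**Figure D1:**
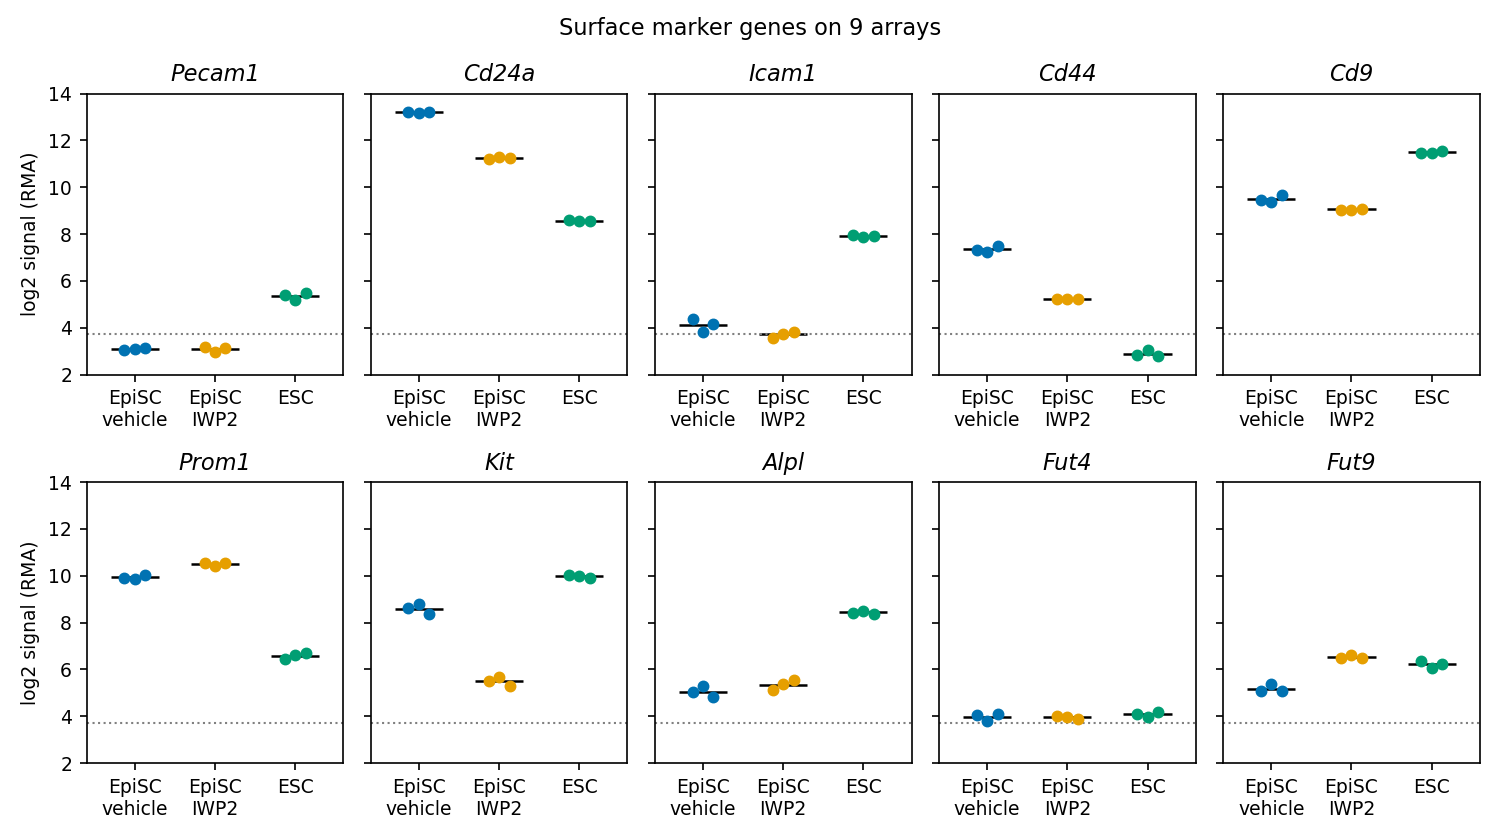
Log2 signal of the 10 surface marker genes (1 panel each) on the 9 arrays, with points for arrays, a bar for the mean of each group of 3 and a dotted line at 3.72, the lower quartile of all values. Cd24a and Cd44 step down from vehicle over IWP2 to ESC, Kit is lowest with IWP2, and Fut4 lies close to the dotted line in all groups.

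The adhesion genes Pecam1 and Icam1 were both highest in ESCs. Pecam1 was at 3.04, 3.11 and 3.14 on the vehicle arrays, at 3.18, 2.97 and 3.13 on the IWP2 arrays and at 5.40, 5.19 and 5.47 on the ESC arrays. Every ESC array lay above every EpiSC array, while the EpiSC groups overlapped. The ESC mean of 5.35 ± 0.144 (SD, n = 3) exceeded that of vehicle EpiSCs, 3.09 ± 0.053, by 2.26 ± 0.085 (SE), a 4.79-fold difference with limma adjusted p = 5.93e-09. Both EpiSC means lay below the lower quartile of all values. When 32 was added to the linear signals, an offset that damps differences at low signal, the ESC minus vehicle difference was 0.85 and still called (limma adjusted p = 3.96e-08). IWP2 left a difference of 0.00 with a 95% interval of -0.19 to 0.19 (limma adjusted p = 0.995).

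Icam1 showed a larger step of the same direction. Its signals were 4.38, 3.83 and 4.18 with vehicle, 3.58, 3.75 and 3.82 with IWP2 and 7.97, 7.88 and 7.94 in ESCs. ESCs were far above both EpiSC groups, and the EpiSC groups lay close together without overlapping. ESCs exceeded vehicle EpiSCs by 3.80 ± 0.125 (SE), or 13.9-fold (limma adjusted p = 2.24e-09), and IWP2-treated EpiSCs by 4.21 ± 0.125, or 18.5-fold (adjusted p = 1.07e-09). With IWP2 the gene fell by 0.41 ± 0.125 (limma adjusted p = 0.0296). This small fall was not called without vehicle replicate 1 (-0.28), vehicle replicate 3 (-0.39), IWP2 replicate 1 (-0.34) or IWP2 replicate 2 (-0.43), nor with the offset (-0.14). With that offset the ESC differences were 2.47 and 2.61, both called.

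Promoters of 7 of the 10 genes were found in a RefSeq table (GRCm38.p6), and the 250 bases before the start site were searched on both strands for 4 short motifs. These were the Tcf/Lef core of Wnt-responsive transcription (CTTTGAA or CTTTGAT or CTTTGTA or CTTTGTT), present in 14.9% of 27025 promoters, the STAT palindrome TTCNNNGAA of LIF signalling (7.14%), the TATA motif TATAAA (13%) and the GC box GGGCGG (33%). The promoter of Icam1, on the plus strand at chr9:21015690-21015939, is shown as that of a gene highest in ESCs. It was the only 1 of the 7 with a STAT match, beginning 42 bases before the start, and also had a GC box match beginning 17 bases before it. Cd9, Kit and Alpl were also highest in ESCs, and their promoters held no STAT match. Capitals mark the matches.
Icam1 promoter: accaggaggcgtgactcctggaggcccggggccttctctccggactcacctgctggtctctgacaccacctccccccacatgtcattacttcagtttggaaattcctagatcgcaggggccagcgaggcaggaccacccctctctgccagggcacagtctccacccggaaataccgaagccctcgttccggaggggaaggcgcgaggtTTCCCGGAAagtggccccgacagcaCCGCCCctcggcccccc
A match in this window describes letters and no binding.

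Endothelial and blood cells, which also carry Pecam1 and Icam1, were looked for through 14 measured markers. Of these, 8 had group means below the lower quartile with vehicle, 7 with IWP2 and 5 in ESCs. The 5 (Cdh5, Emcn, Ptprc, Tal1 and Tie1) lay below it in all 3 groups. In ESCs 6 of the 14 were higher than in vehicle EpiSCs and 0 lower, against 38.7% and 27.9% of all genes. The median difference of the 14 was 0.28 against 0.12 for all genes. Among the 6 were Tek, an angiopoietin receptor gene, by 2.39, and Cd34 by 1.26. The summed signal of the 14 (log2 of the sum on the linear scale) was 8.42 to 8.64 with vehicle, 8.40 to 8.44 with IWP2 and 8.93 to 9.02 in ESCs. Their part in the Pecam1 and Icam1 differences was not tested.

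Other adhesion genes of the immunoglobulin family did not all go with Pecam1 and Icam1. Of 19 measured, 6 were higher (38.7% of all genes) and 8 lower (27.9%) in ESCs than in vehicle EpiSCs. Their median difference was 0.07 against 0.12 for all genes. Jam2, a junctional adhesion molecule, was higher in ESCs by 5.69 ± 0.085 (SE), and Icam2 by 0.92 at a low level. With IWP2, 4 rose (16.6% of all genes) and 5 fell (16.8%), with a median of -0.06 against 0.03 for all genes. The largest of these falls was that of Alcam, from 6.68 to 3.37, and ESCs were at 3.47.

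Cd24a and Cd44 were highest in vehicle EpiSCs, intermediate with IWP2 and lowest in ESCs. Cd24a was at 13.19, 13.17 and 13.22 with vehicle, at 11.19, 11.27 and 11.23 with IWP2 and at 8.60, 8.55 and 8.54 in ESCs. The 3 groups did not overlap, and the spread within each was small. IWP2 lowered the gene 3.90-fold, by 1.96 ± 0.051 on the log2 scale (SE, limma adjusted p = 5.20e-09). In ESCs it fell 24.7-fold below vehicle EpiSCs, with a difference of -4.63 ± 0.051 (adjusted p = 2.00e-12), and 6.35-fold below IWP2-treated EpiSCs (adjusted p = 5.44e-11). All 3 probe sets of Cd24a were called in the same direction in each comparison, with IWP2 minus vehicle values of -1.96, -2.23 and -1.81.

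Cd44 gave signals of 7.32, 7.23 and 7.50 with vehicle, 5.21, 5.23 and 5.22 with IWP2 and 2.84, 3.04 and 2.78 in ESCs. Again the groups did not overlap, and the ESC values lay below the lower quartile of all values. With IWP2 the gene fell by 2.13 ± 0.086 (SE), or 4.38-fold (limma adjusted p = 8.34e-08). The ESC minus vehicle difference was -4.46 ± 0.086 (adjusted p = 5.42e-11) and was -2.31 with the offset of 32. The ESC minus IWP2 difference was -2.33 ± 0.086 (adjusted p = 4.87e-09) and was -0.81 with the offset. Of the other 3 probe sets, the brightest gave -2.21 for IWP2 and -4.09 for ESC minus vehicle. The next gave -1.20 and -1.40, and its ESC minus IWP2 value of -0.20 was not called. The dimmest had group means of 2.49 to 2.54 and was called in no comparison.

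The Cd44 promoter (chr2:102901666-102901915, minus strand, GRCm38.p6) is shown as that of a gene lowered when Wnt secretion was blocked. It held no match to any of the 4 motifs.
Cd44 promoter: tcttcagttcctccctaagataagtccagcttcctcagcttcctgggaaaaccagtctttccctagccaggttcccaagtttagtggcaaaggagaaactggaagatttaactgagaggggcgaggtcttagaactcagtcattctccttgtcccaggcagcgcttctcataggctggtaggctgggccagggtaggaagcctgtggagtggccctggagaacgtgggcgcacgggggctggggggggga
It held 5 CpG dinucleotides, near the median of 6 over the 27025 promoters, and the Icam1 window held 15.

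**Figure D2:**
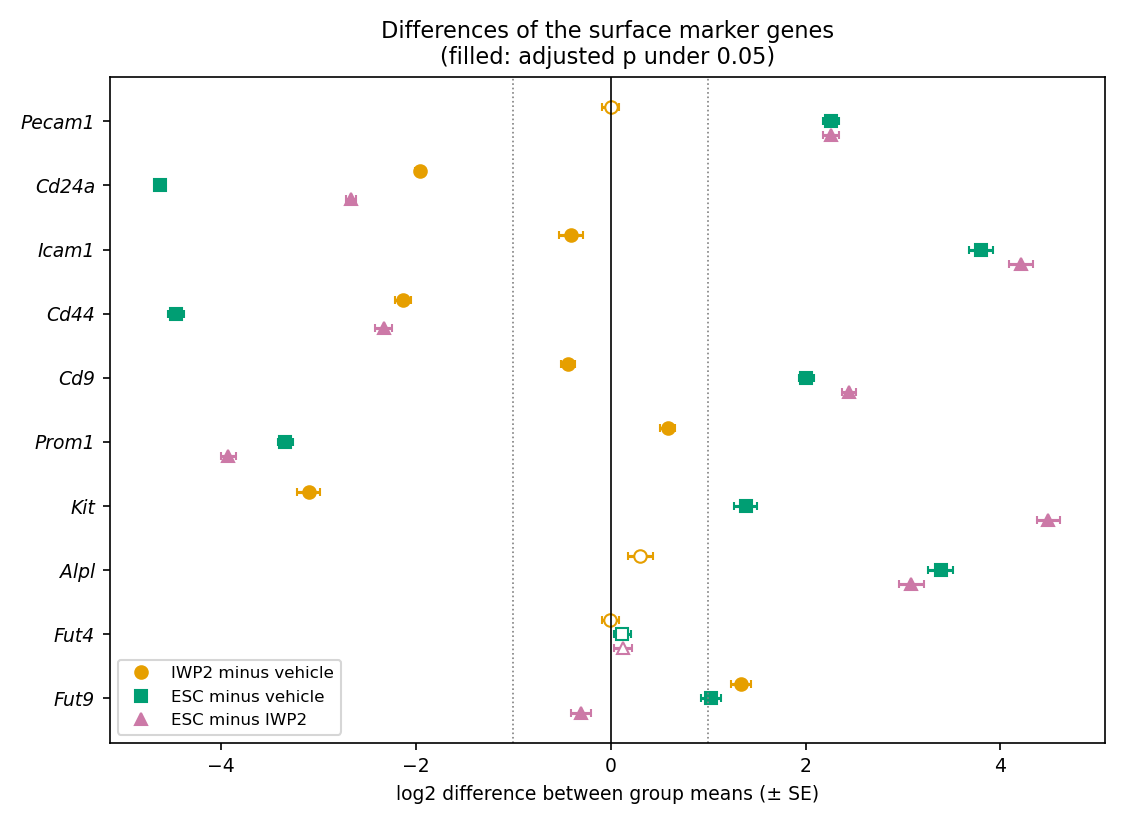
Differences between group means (horizontal axis, log2, bars ± SE) for the 10 genes in the 3 comparisons, with filled symbols for genes called at the threshold of 0.05 and dotted lines at a 2-fold difference. Cd24a and Cd44 lie to the left in all 3 comparisons, Pecam1, Icam1, Cd9 and Alpl lie to the right for both ESC comparisons, and Kit is at -3.10 for IWP2 and at 4.49 for ESC minus IWP2.

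Outside the 10, the genes with profiles most like these, by the root mean square distance between centred log2 values over the 9 arrays, included a hyaluronan synthase. Has2, which makes the ligand of Cd44, was the nearest of these to Cd24a (distance 0.202), and the fatty acid binding protein gene Fabp7 was next (0.263). Has2 was at 7.74, 7.77 and 7.77 with vehicle, at 6.06, 5.93 and 5.95 with IWP2 and at 3.70, 3.57 and 3.51 in ESCs. It fell by 1.78 ± 0.064 (SE) with IWP2 (limma adjusted p = 3.79e-08), and its second probe set gave -1.69. Outside the 10, the nearest to Cd44 were Podxl, a sialomucin of the surface of pluripotent cells (0.156), and the immediate early gene Egr1 (0.171), Cd24a and Cd44 were themselves 0.163 apart, closer than Has2 was to Cd24a or Egr1 to Cd44. With 3 groups of arrays such a distance mostly compares 3 group means.

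Among 18 hyaluronan and Cd44 partner genes, 1 rose (16.6% of all genes) and 7 fell (16.8%) with IWP2. In ESCs 5 were higher (38.7%) and 7 lower (27.9%) than in vehicle EpiSCs. Median differences were -0.13 and -0.04, against 0.03 and 0.12 for all genes. Ezr, which encodes ezrin, a link from Cd44 to the actin cytoskeleton, fell by 0.83 with IWP2 (-0.10 and not called on its second probe set), and Hmmr, an intracellular hyaluronan-binding protein, rose by 0.60. Esrp1, a splicing factor of epithelial Cd44 isoforms, was at 9.64 with vehicle, 9.35 with IWP2 and 6.51 in ESCs. The ESC minus vehicle difference of -3.13 ± 0.053 (SE) had a limma adjusted p of 2.46e-11. Its relative Esrp2 fell by 0.96 with IWP2, with -0.23 and no call on its second probe set. The arrays summarise Cd44 transcripts by probe set, and isoforms were not measured here.

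Cd44 is also strong in fibroblasts. Of 12 fibroblast and feeder markers, 4 fell (16.8% of all genes) and 2 rose (16.6%) with IWP2. In ESCs 5 were lower (27.9%) and 1 higher (38.7%) than in vehicle EpiSCs. Their summed signal was 11.3 to 11.8 with vehicle, 10.3 to 10.5 with IWP2 and 8.38 to 8.51 in ESCs. Acta2 was at 11.16, 9.76 and 6.47 in these groups, Col1a2 at 8.48, 7.58 and 5.25, and Col3a1 at 6.63, 4.34 and 3.83. Dcn and Thy1 were the 2 that rose with IWP2, by 0.78 and 0.72. Fap lay below the lower quartile in all 3 groups. Definitive endoderm markers moved with IWP2 as well. Of 13, 12 fell, with Cxcr4, Gsc and Spink1 below the lower quartile after IWP2. The summed signal of the 13 was 12.8 to 12.9 with vehicle, 8.54 to 8.59 with IWP2 and 9.96 to 9.98 in ESCs. In ESCs 11 of the 13 were lower than in vehicle EpiSCs and 1, Trh, was higher. The ESC sums include Trh at 9.33, 9.29 and 9.31. The part of either cell type in the falls of Cd24a and Cd44 was not tested.

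The membrane organisers Cd9 and Prom1 went opposite ways. Cd9 was at 9.45, 9.37 and 9.65 with vehicle, at 9.04, 9.03 and 9.08 with IWP2 and at 11.48, 11.46 and 11.54 in ESCs. It was thus strong in all groups and highest in ESCs, with no overlap. ESCs exceeded vehicle EpiSCs by 2.01 ± 0.073 (SE), or 4.02-fold (limma adjusted p = 5.01e-09), and IWP2-treated EpiSCs by 2.45 ± 0.073 (adjusted p = 1.17e-09). IWP2 lowered Cd9 by 0.44 ± 0.073 (adjusted p = 0.00133), a fall that was called in every fit that left out 1 array. Nearest in profile were Sorl1, a sorting receptor gene (distance 0.078), and Tmem64 (0.099).

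Prom1 was at 9.89, 9.87 and 10.01 with vehicle, at 10.54, 10.43 and 10.56 with IWP2 and at 6.43, 6.63 and 6.69 in ESCs. EpiSC arrays lay far above ESC arrays, and IWP2 arrays above vehicle arrays. Prom1 rose by 0.58 ± 0.077 (SE) with IWP2, or 1.50-fold (limma adjusted p = 0.000328). ESCs were 10.2-fold below vehicle EpiSCs, with a difference of -3.34 ± 0.077 (adjusted p = 2.04e-10), and 15.2-fold below IWP2-treated EpiSCs (adjusted p = 6.79e-11). Among the genes low in ESCs, Cd24a and Cd44 fell with IWP2 while Prom1 rose. Its paralogue Prom2 was not called in any comparison, at means of 4.61, 4.76 and 4.79. The gene nearest in profile was Sdc2, a syndecan of the cell surface (distance 0.108), at 8.61, 9.29 and 5.26 in the 3 groups.

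Tetraspanins and partners of Cd9 went both ways. Of 20 measured, 7 were higher (38.7% of all genes) and 12 lower (27.9%) in ESCs than in vehicle EpiSCs. Their median was -0.42 against 0.12 for all genes, and they ranged from -1.51 to 1.25. Cd81, a close relative of Cd9, was higher in ESCs by 0.66. With IWP2, 4 rose (16.6% of all genes) and 8 fell (16.8%), with a median of 0.05 against 0.03 for all genes. Ptgfrn, which encodes an immunoglobulin-type partner of Cd9, rose by 0.64 (0.32 and not called on its second probe set), and Tspan6 fell by 1.03.

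Kit had the largest change with IWP2 among the 10. Its signals were 8.64, 8.77 and 8.38 with vehicle, 5.50, 5.69 and 5.29 with IWP2 and 10.03, 10.01 and 9.91 in ESCs. Each group stood clear of the others, with ESCs highest and IWP2-treated EpiSCs lowest. IWP2 lowered Kit 8.59-fold, by 3.10 ± 0.117 on the log2 scale (SE, limma adjusted p = 5.52e-08). ESCs exceeded vehicle EpiSCs by 1.39 ± 0.117, or 2.61-fold (adjusted p = 2.92e-06), and IWP2-treated EpiSCs by 4.49 ± 0.117, or 22.45-fold (adjusted p = 4.41e-10). The second probe set, at a lower signal, gave smaller differences in the same directions, of -1.77, 0.87 and 2.64, all called. The 95% interval of the IWP2 difference was -3.37 to -2.84.

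The Kit promoter (chr5:75574737-75574986, plus strand, GRCm38.p6; outermost of 2 starts in the table) is shown beside that of Cd44 as that of a gene which fell with IWP2. Of the 4 motifs it held a GC box, in capitals, beginning 98 bases before the start.
Kit promoter: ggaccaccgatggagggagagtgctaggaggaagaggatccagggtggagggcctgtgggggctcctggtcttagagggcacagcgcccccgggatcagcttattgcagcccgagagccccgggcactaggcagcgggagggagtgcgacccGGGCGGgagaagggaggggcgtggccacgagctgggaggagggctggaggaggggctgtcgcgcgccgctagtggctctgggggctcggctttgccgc
None of the 7 promoters read held a Tcf/Lef core or a TATA motif in these 250 bases.

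The ligand gene of this receptor fell too. Kitl was at 5.95, 6.43 and 6.62 with vehicle, at 3.42, 3.48 and 3.56 with IWP2 and at 4.75, 4.95 and 4.84 in ESCs. The groups did not overlap, and the IWP2 arrays lay below the lower quartile of all values. It fell by 2.85 ± 0.145 (SE) with IWP2 (limma adjusted p = 4.62e-07). Its other 3 probe sets gave -1.47 and -0.74, both called, and -0.13, not called. Unlike Kit, Kitl was lower in ESCs than in vehicle EpiSCs, by -1.49 ± 0.145 (adjusted p = 8.47e-06). Of 15 measured genes for Kit ligand, Kit signalling and related receptors, 2 rose (16.6% of all genes) and 4 fell (16.8%) with IWP2. Their median with IWP2 was 0.04 against 0.03 for all genes. In ESCs 5 of the 15 were higher (38.7%) and 7 lower (27.9%) than in vehicle EpiSCs. Sos1, which couples the receptor to Ras, fell by 0.99 with IWP2, while another of its probe sets rose by 0.35 and 3 were not called. Nearest to Kit in profile were Prxl2a (distance 0.167) and the desmosome gene Dsg2 (0.226), at 9.51, 6.56 and 10.79 in the 3 groups. A further probe set of Prxl2a gave -2.38 and 2.01 for IWP2 and ESC minus vehicle, both called. Another gave 0.08 and -0.05, neither called.

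Kit marks definitive endoderm together with Cxcr4, and germ cells. Cxcr4 fell from 7.21 to 3.53 with IWP2, among the 12 of 13 endoderm markers that fell, and was at 3.30 in ESCs, where Kit was highest. Of 8 measured primordial germ cell markers, 7 were higher (38.7% of all genes) and 1 lower (27.9%) in ESCs than in vehicle EpiSCs. The 7 included Dazl (4.81) and Tfap2c (4.25). They also included Prdm14 and Dppa3, which are on the naive pluripotency list too, so the lists are not separate. The summed signal of the 8 was 8.39 to 8.54 with vehicle, 7.57 to 7.59 with IWP2 and 12.2 on all 3 ESC arrays. Dazl, Ddx4 and Prdm14 lay below the lower quartile in both EpiSC groups. The part of such cells in the Kit values was not tested.

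Alpl was another gene of ESCs. It was at 5.02, 5.29 and 4.82 with vehicle, at 5.11, 5.39 and 5.54 with IWP2 and at 8.42, 8.50 and 8.38 in ESCs. ESC arrays lay above all EpiSC arrays, and the EpiSC groups overlapped. ESCs exceeded vehicle EpiSCs by 3.39 ± 0.130 (SE), or 10.5-fold (limma adjusted p = 7.15e-09), and IWP2-treated EpiSCs by 3.08 ± 0.130, or 8.48-fold (adjusted p = 1.37e-08). The IWP2 minus vehicle difference of 0.30 ± 0.130 was not called (adjusted p = 0.105), with a 95% interval of 0.01 to 0.59. It was called without vehicle replicate 2 (0.43) and without IWP2 replicate 1 (0.42). The germline gene Smc1b was nearest in profile (distance 0.128), at 4.14, 4.33 and 7.42.

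The other alkaline phosphatase genes differed little. Alppl2, the embryonic form, was at 5.37 ± 0.152 with vehicle, 5.46 ± 0.054 with IWP2 and 5.60 ± 0.147 in ESCs (SD, n = 3), without a call. Akp3, an intestinal form, was higher in ESCs than in vehicle EpiSCs by 0.38 ± 0.098 (SE, limma adjusted p = 0.00662). Of 11 genes for alkaline phosphatases and phosphate handling other than Alpl, 2 rose (16.6% of all genes) and 0 fell (16.8%) with IWP2. In ESCs 9 were higher (38.7%) and 0 lower (27.9%) than in vehicle EpiSCs. The median of these ESC minus vehicle differences was 0.33 against 0.12 for all genes, and none of the 11 reached 2-fold.

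Of the 2 genes that complete Lewis x, Fut9 changed and Fut4 passed the test in no comparison. Fut4 was at 4.05, 3.78 and 4.09 with vehicle, at 4.03, 3.98 and 3.90 with IWP2 and at 4.11, 3.99 and 4.18 in ESCs. All groups overlapped at a signal near the lower quartile, where the array resolves little. No difference was called, with values of -0.01 ± 0.089, 0.12 ± 0.089 and 0.12 ± 0.089 (SE) for IWP2 against vehicle, ESC against vehicle and ESC against IWP2, and limma adjusted p of 0.972, 0.260 and 0.251. The 95% interval of the ESC minus vehicle difference was -0.08 to 0.32. Its second probe set, at means of 3.46, 3.68 and 3.64, was not called either.

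Fut9 was lowest in vehicle EpiSCs. Its signals were 5.08, 5.39 and 5.09 with vehicle, 6.47, 6.62 and 6.47 with IWP2 and 6.35, 6.07 and 6.24 in ESCs. Vehicle arrays lay below all others, and IWP2 arrays just above ESC arrays. IWP2 raised Fut9 2.52-fold, by 1.33 ± 0.102 on the log2 scale (SE, limma adjusted p = 8.32e-06), and its other probe sets gave 1.10 and 0.91, both called. ESCs exceeded vehicle EpiSCs by 1.03 ± 0.102, or 2.04-fold (adjusted p = 9.75e-06), with 0.47 and 0.72 on the other probe sets. The ESC minus IWP2 difference of -0.30 ± 0.102 (adjusted p = 0.0263) was not called without IWP2 replicate 2 (-0.25) or ESC replicate 2 (-0.23), after repeated quantile normalization (-0.19), or on its dimmest probe set (-0.19). With the offset of 32 the IWP2 and ESC minus vehicle differences were 0.85 and 0.64, both called. Nearest in profile was Pstpip2 (distance 0.137).

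**Figure D3:**
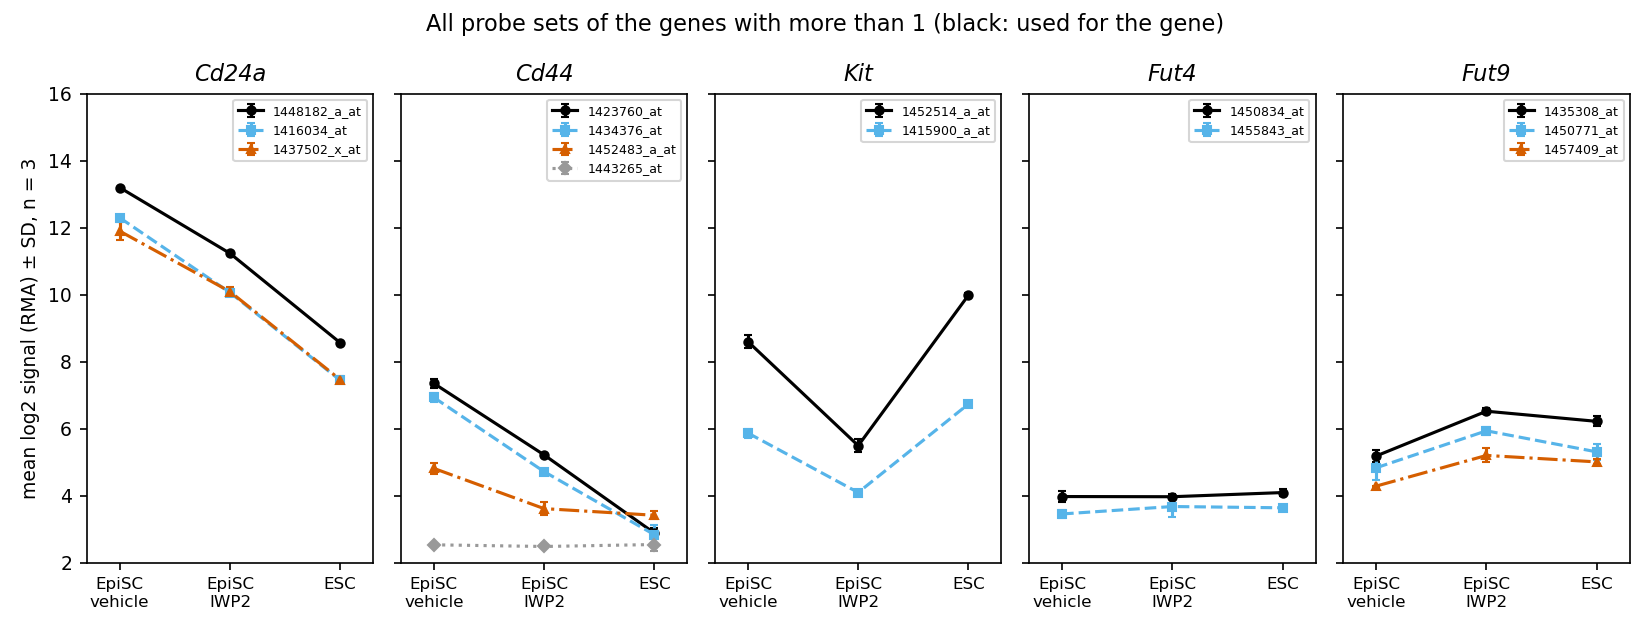
Mean log2 signal ± SD (n = 3) of every probe set of the 5 genes with more than 1, by group, with the probe set used for each gene in black. The 3 sets of Cd24a, 2 of Kit and 3 of Fut9 differ in the same direction in each comparison, with unequal sizes, while the dimmest set of Cd44 stays at 2.49 to 2.54.

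Lewis x also needs GDP-fucose and chains of N-acetyllactosamine that are not capped by sialic acid. Of 16 other genes for fucosyltransferases, fucose supply and fucose removal, 2 rose (16.6% of all genes) and 3 fell (16.8%) with IWP2. Their median was -0.04 against 0.03 for all genes. Gmds, the first enzyme of GDP-fucose synthesis, rose with IWP2 by 0.66 ± 0.079 (SE, limma adjusted p = 0.000167). In ESCs 2 of the 16 were higher (38.7% of all genes) and 8 lower (27.9%) than in vehicle EpiSCs. The median was of -0.30 against 0.12 for all genes. The lysosomal fucosidase gene Fuca1 was higher by 0.998, and Slc35c1, the Golgi transporter of GDP-fucose, was lower, at a difference of -0.67. Fut8, which adds core fucose to N-glycans, rose by 0.24 with IWP2, with 0.10 and 0.13 and no call on its other probe sets. For ESC minus vehicle Fut8 was at -0.60, and its other probe sets gave 0.24 and -0.32, both called. Fut7, which makes sialyl Lewis x, was higher in ESCs by 0.38. Fut1 and Fut2, which make H antigens, were not called in any of the 3 comparisons. Fut10 and Fut11 were lower in ESCs, at differences of -1.47 and -1.43, although another probe set of Fut10 was higher by 0.30.

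Genes for the acceptor chains and their sialylation went both ways. Of 18 measured, 5 rose (16.6% of all genes) and 1 fell (16.8%) with IWP2. In ESCs 8 were higher (38.7%) and 7 lower (27.9%) than in vehicle EpiSCs. The medians were -0.01 and 0.07, against 0.03 and 0.12 for all genes. B4galt4, a galactosyltransferase gene, was at 7.16, 7.06 and 7.29 with vehicle, at 8.80, 8.66 and 8.77 with IWP2 and at 4.25, 4.71 and 4.82 in ESCs. It rose by 1.57 ± 0.134 (SE) with IWP2 (limma adjusted p = 1.73e-05). Gcnt1, which builds branches on O-glycans, fell by 1.98, and by 0.47 on its second probe set. B3gnt2, the main enzyme that extends N-acetyllactosamine chains, was higher in ESCs by 1.11, and St6gal1, which caps chains with sialic acid, differed by -2.92, but by -0.13 without a call on its second probe set. The sugar itself was not measured.

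**Figure D4:**
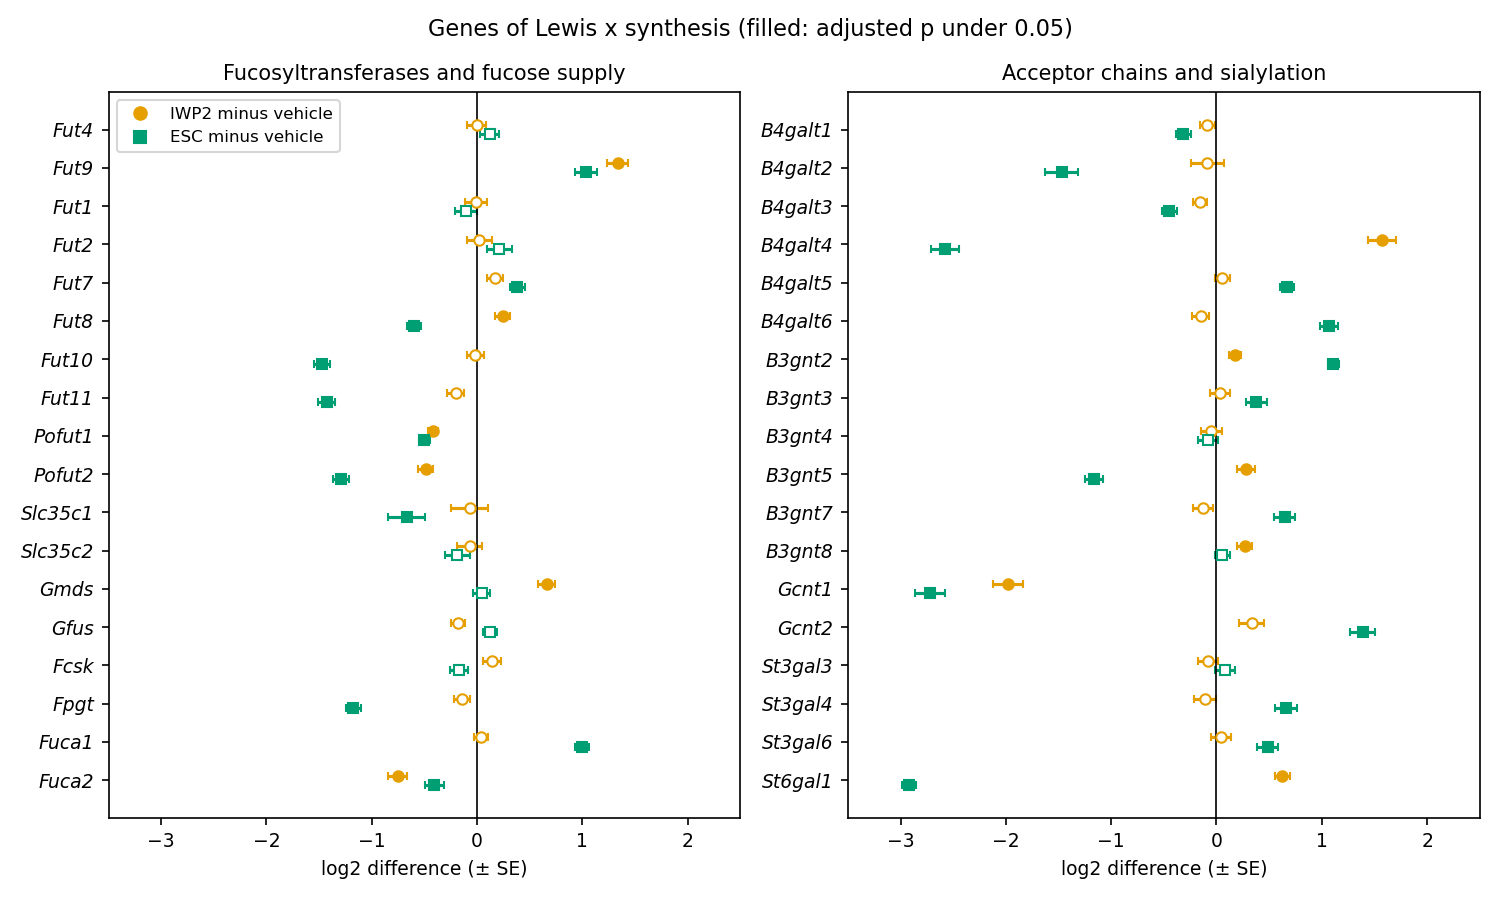
Log2 differences (± SE) from vehicle EpiSCs, for IWP2 and for ESCs, of Fut4, Fut9 and 16 related genes (left) and of 18 genes for acceptor chains and sialylation (right), filled for called genes. Fut9 lies at 1.33 and 1.03 while Fut4 lies at -0.01 and 0.12, and B4galt4 and St6gal1 lie right of 0 with IWP2 and left of 0 in ESCs.

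A wider list of 28 surface proteins used to sort pluripotent or early embryonic cells was set beside the 10. In ESCs 9 of them were higher (38.7% of all genes) and 17 lower (27.9%) than in vehicle EpiSCs. The median was -0.62 against 0.12 for all genes. Il6st (gp130), the signalling receptor for LIF, was higher by 2.15. N-cadherin (Cdh2) was lower, at a difference of -3.62, and so was Podxl at -4.10, with -1.18 on the second probe set of Podxl. With IWP2 6 rose (16.6% of all genes) and 12 fell (16.8%), with a median of -0.09 against 0.03 for all genes. The largest fall was that of Nt5e (CD73), an ectonucleotidase, by 4.49 ± 0.130 (SE), although its other 2 probe sets gave -0.56, called, and 0.05, not called. Cxcr4 fell by 3.68. Cdh3 (P-cadherin) and Thy1 (CD90) rose by 0.96 and 0.72, with 0.08 and no call on the second probe set of Cdh3. Lifr, the LIF receptor gene, behaved like Kit in its order, at 7.57 with vehicle, 5.81 with IWP2 and 9.49 in ESCs.

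The 10 genes thus showed several orders of their group means. ESCs were highest for Pecam1, Icam1, Cd9, Kit and Alpl, vehicle EpiSCs for Cd24a and Cd44, and IWP2-treated EpiSCs for Prom1 and Fut9. Neighbouring groups overlapped for vehicle and IWP2 in Pecam1 and Alpl and for all groups in Fut4.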

How the data were processed

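Biotin-labelled cRNA from 9 cultures was hybridised, as the label protocol states, to the Affymetrix array type Mouse Genome 430 2.0. The authors deposited log2 values for 45101 probe sets, 1 column per array. RMA and limma are listed per the submitters' processing notes, where no version or setting was given. Array medians were 5.22 to 5.26. Such values hold no detection calls and no depth, and 3 arrays per group limit the precision.

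The platform annotation gave 1 symbol for 34945 probe sets, 932 had several and were left out, and each gene took its brightest set. Group means were fitted to all 9 arrays across 18193 genes with limma 3.58.1 in R 4.3.3 (lmFit and eBayes, 6 residual degrees of freedom, 9.58 after moderation). Two-sided p-values received Benjamini-Hochberg adjustment across the 18193 genes. The median standard error of a difference was 0.0819. The scripts were tested on simulated data. The 10 genes and all lists were chosen with earlier results of these data known. In each related list, up to 2 called genes per direction and comparison with the smallest p could be named, besides 14 listed in the rule for their role (Kitl and Fut8, for example). The single marker genes of the cell type checks, Tek, Dazl and Tfap2c among them, were named after their values were seen. Alternatives covered probe set choice, low signal, normalization, the variance model, a replicate block, thresholds and leaving out each array.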

Additional observations from a re-analysis of the deposited data

How the results depend on the processing

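The members called in the IWP2 minus vehicle, ESC minus vehicle and ESC minus IWP2 comparisons numbered 7, 9 and 9, and stayed within 1.5 times of that under the alternatives run, except that a test against a 2-fold minimum (limma's treat) called 3 in the first. Leaving out 1 array gave 6 to 8, 9 to 9 and 8 to 9 members, and 4949 to 5965, 11077 to 12115 and 10565 to 11323 genes. Over all genes the first comparison called 6094, 3886 at an adjusted p under 0.01 and 345 with treat, which called 2148 of 12123 in the second and 2279 of 11298 in the third. With a replicate block the members called were again 7, 9 and 9, and the genes 5754, 12024 and 11138. Deviations of same-numbered arrays correlated at -0.0596 to 0.0507 over 9 pairs. No shared replicate effect was seen, but these values cannot show whether the cultures were handled in pairs. On the dimmest Cd44 probe set the ESC minus vehicle and ESC minus IWP2 differences turned to 0.00787 and 0.058, without a call. The cause was not tested. Of the recomputed member differences 684 stayed on their side of the threshold, 19 kept their direction but lost a call and 3 gained one, and the 2 on that Cd44 probe set were the called differences that changed sign. Differences of Fut4 and Pecam1 that were not called changed sign around 0 under some alternatives, without a call. Pecam1, Cd44 and Fut4 have no value when genes under the median signal are left out. Low signal limits Pecam1, Icam1, Cd44 and Fut4.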
